A study of Mus musculus with 6 samples.

Results

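The calmodulin regulator Pcp4 and its close functional partners were examined in mammary epithelial cells (MECs) that lack p53 and had once been exposed to tamoxifen. The set holds 8 genes chosen by symbol. They are the IQ-motif regulators Pcp4, Pcp4l1, Nrgn and Gap43 and the calmodulin kinase II genes Camk2a, Camk2b, Camk2d and Camk2g. Of these 8, 7 had a probeset assigned to them alone, among 17418 genes measured that way on 22369 probesets, and each had exactly 1 such probeset. Camk2g had none. Pcp4 gave the set its name because its own intensity differed so much between the groups, so its values are given as a description with no p-value, and the others were included as its relatives in function.

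Calmodulin is the main intracellular calcium sensor. When calcium enters a cell, calmodulin binds it and switches on kinases such as CaMKII, the phosphatase calcineurin, the PDE1 phosphodiesterases, nitric oxide synthases and the plasma membrane calcium pumps. Small proteins with an IQ motif bind calmodulin directly, many of them when calcium is low, and change how fast calmodulin takes up and releases calcium or how much of it is free for the enzymes. Pcp4, also called PEP-19, and neurogranin (Nrgn) are the best known of them and were first described in neurons. In mammary epithelium, calcium is both a signal and a component of milk.

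The RNA came from p53-null Balb/c mammary epithelium transplanted into wild-type Balb/c mice whose fat pads had been cleared, so that the epithelium lacked p53 in all samples and the surrounding host cells did not. Duct fragments of 8 week old donors were placed 5 weeks after the fat pads were cleared at 3 weeks of age. Hosts then carried a 5 mg tamoxifen pellet or a sham pellet (control) for 13 weeks, from a host age of 16 weeks in the paper and of 8 weeks in the sample labels. Tamoxifen, a selective estrogen receptor modulator, had been withdrawn for 4 weeks when glands were collected, and every mouse, controls included, had received 100 ug of 17β-estradiol (E2) 8 h earlier. The comparison is therefore of E2 treated cells with and without past tamoxifen, and cells without E2 were not analysed here. MECs were released with collagenase and hyaluronidase, and each of the 3 control and 3 tamoxifen arrays carries RNA of a pool of mice, 5 according to the series design and 3 to 5 according to the extraction protocol.
Mean intensity per array was 395.1 to 403.4. Correlations of log2 intensity were 0.983 to 0.991 between the groups and 0.989 to 0.994 within them. Basal keratin genes (Krt5 between 1863 and 2943, Krt14 between 1749 and 2219) and the luminal factor Elf5 (868 to 2104) were bright on every array. The fibroblast genes of a marker list summed to 18431 to 19999 and the endothelial genes to 10695 to 13533, so that the preparations were not epithelium alone. Control 1 stood apart in proliferation markers, whose 7 intensities summed to 4024 beside 2357 and 2096 in the other controls, and tamoxifen 2 in lymphocyte markers, whose sum was 5170 beside 2122 and 1708 in the other tamoxifen pools.

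The upstream sequences of Pcp4 and Pcp4l1 are shown first, because these were the IQ-motif genes whose intensities did not overlap between the groups. They are the 250 bases before the RefSeq gene start in the mouse build GRCm38.p6, read 5′ to 3′ on the strand of the gene. The windows are chr16:96467356-96467605 on the plus strand for Pcp4 and chr1:171196269-171196518 on the minus strand for Pcp4l1. Capitals mark the estrogen response element half-site GGTCA, or TGACC on the opposite strand.
Pcp4: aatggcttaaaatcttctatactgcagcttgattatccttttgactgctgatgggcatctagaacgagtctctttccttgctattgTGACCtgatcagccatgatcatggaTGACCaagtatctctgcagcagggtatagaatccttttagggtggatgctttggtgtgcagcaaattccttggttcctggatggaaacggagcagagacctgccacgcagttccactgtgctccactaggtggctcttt
Pcp4l1: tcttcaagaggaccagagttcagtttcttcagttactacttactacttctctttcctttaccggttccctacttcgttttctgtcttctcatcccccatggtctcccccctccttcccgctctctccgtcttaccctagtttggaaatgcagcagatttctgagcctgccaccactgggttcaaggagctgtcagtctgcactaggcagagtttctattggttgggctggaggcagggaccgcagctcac
The Pcp4 window holds TGACC at 164 and again at 139 bases before the start, and the Pcp4l1 window holds no half-site. Of 32851 RefSeq promoter windows of the same length, 35.2% hold at least 1 half-site on either strand, so that its presence in Pcp4 is common. The full element GGTCANNNTGACC, which contains the half-site on each strand, was in 0.0639% of the windows and in neither of these. Neither window holds the TATA box TATAAA (12.4% of windows on either strand), the cAMP response element TGACGTCA (1.55%) or the AP-1 site TGANTCA (6.75%). Of the 7 measured genes, 5 had a window in the table used, and among the other 3, Nrgn and Camk2b held none of these letters and Camk2d held 1 half-site 177 bases before its start. A match describes letters only, and binding of any factor was not measured.

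Pcp4 was the one gene of the set that was far higher after tamoxifen. Control pools had intensities of 103.5, 97.6 and 97.8, and tamoxifen pools 855.8, 831 and 753.5. The groups lay far apart, since the lowest tamoxifen pool was 7.28-fold above the highest control pool, while the pools of a group differed by at most 1.14-fold. The means were 99.6 ± 3.38 (SD, n = 3 pools) and 813 ± 53.3 (SD, n = 3), a fold change (FC) of 8.16 and a log2 difference of 3.03 with an SE of 0.08 from limma. By size of the log2 difference it ranked 6 among 22369 probesets. On the log2 scale it stayed between 2.99 and 3.08 whichever single pool was left out, and it was 3.04 without both control 1 and tamoxifen 2. The control intensities of Pcp4 lay below the median intensity of the control arrays (132.8 to 136.3). With an offset of 32 added before log2 the difference was 2.68. In RNA of a mixed preparation, a change in the share of cells that express a gene and a change in RNA per cell cannot be told apart.

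**Figure D1:**
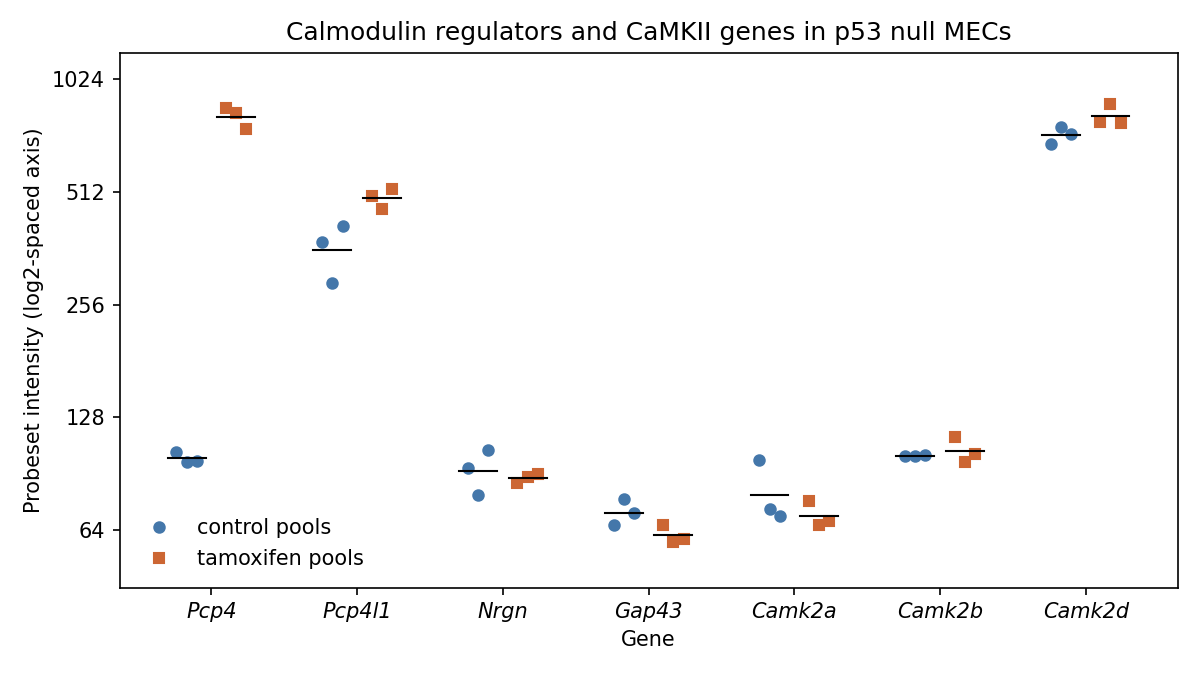
Probeset intensity (log2-spaced axis) of the 7 measured genes in each control pool (circles) and tamoxifen pool (squares), with the mean of log2 intensity as a line. Pcp4 lies at 97.6 to 103.5 in controls and 753.5 to 855.8 after tamoxifen, whereas the groups differ far less in the other genes. Pcp4l1 and Camk2d do not overlap either, with the lowest tamoxifen pool 1.11-fold and 1.02-fold above the highest control. Levels of different genes cannot be set against each other, since each probeset has its own brightness.

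A further probeset was assigned to both Igsf5 and Pcp4 by the annotation and so belongs to neither here. Its intensities were 231.7, 179.7 and 187.3 in controls and 192.7, 193.3 and 211.2 after tamoxifen. These overlap, with means of 199.6 ± 28.1 and 199.1 ± 10.5, and the log2 difference was 0.0042 (SE 0.11). By limma the adjusted p, corrected over all probesets, was 0.993. Thus the signal of the probeset assigned to Pcp4 alone was not shared by this one, and which transcript the shared probeset reads was not tested.

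Because Pcp4 is best known from neurons, markers of neurons and of other non-epithelial cells are given beside it. Genes are said to have risen or fallen at an adjusted p under 0.05. Of 7 measured neuron markers, 0 rose and 2 were higher at an unadjusted p under 0.05, as were 6.55% of all probesets. Their summed intensity was 571 to 607 in controls and 702 to 724 after tamoxifen, and the median log2 difference was 0.10. Stmn2, a neuronal tubulin regulator, had the largest difference (179.7, 209.6 and 226.5 in controls, 320.5, 345.6 and 327.0 after tamoxifen, log2 difference 0.70, adjusted p = 0.0685 from limma). Rbfox3, a nuclear protein that defines mature neurons, was at 77.3 to 79.6 in controls and 70.7 to 81.3 after tamoxifen, and the synaptic vesicle gene Syt1 at 92.6 to 106.3 and 81.5 to 107.7. Of 5 Schwann cell markers, 4 were higher at an unadjusted p under 0.05 and 0 passed adjusted, with a summed intensity of 6200 to 7424 against 8979 to 9601, whereas the defining factor Sox10 had a log2 difference of -0.27. Of 8 smooth muscle and pericyte markers, 5 were higher at an unadjusted p under 0.05 and 0 passed adjusted, with sums of 8023 to 8264 and 9273 to 9821 and a median log2 difference of 0.28. The largest single log2 difference in these 3 lists was 0.95, in the Schwann cell gene Cdh19, beside 3.03 in Pcp4. No marker was listed at 0, as probesets carry background. The part of these cells in the Pcp4 result was not tested.
For epithelial markers, too, none passed adjusted. Among 8 luminal progenitor and alveolar markers the summed intensity was 14103 to 17534 in controls and 7911 to 12301 after tamoxifen. At an unadjusted p under 0.05, 4 of them were lower and 1 higher, beside 5.87% and 6.55% of all probesets. Their median log2 difference was -0.44, and the milk protein gene Csn2 had a log2 difference of -2.07. The 8 basal markers summed to 16646 to 20206 and 16523 to 18034, which overlap, and 0 passed unadjusted. Their part in the Pcp4 result was not tested either. For the 6 hormone-sensing luminal markers the sums, 4970 to 5436 and 4525 to 5264, overlapped too, with 2 lower and 1 higher at an unadjusted p under 0.05 and log2 differences from -0.95 to 0.43.

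Pcp4l1, which encodes a close homolog of Pcp4 with an IQ motif, was the only other IQ-motif gene whose pools did not overlap. It had intensities of 374.9, 291.8 and 415.4 in controls and 497.8, 461 and 521.5 after tamoxifen. Every tamoxifen pool lay above every control pool, but the gap between the nearest pools was 1.11-fold, smaller than the 1.42-fold spread among controls. The means were 360.7 ± 63.0 and 493.4 ± 30.5, an FC of 1.38 and a log2 difference of 0.47 (SE 0.14, 95% interval of this gene alone 0.13 to 0.80). This did not pass (adjusted p = 0.283 by limma, and 0.113 to 0.553 when the processing was varied).
Nrgn encodes neurogranin, which holds calmodulin in dendrites until calcium rises and is also abundant in platelets. Its intensities were 94.0, 79.3 and 104.6 in controls and 85.4, 88.9 and 90.5 after tamoxifen, so that all tamoxifen pools fell inside the control range. The log2 difference was -0.06 (SE 0.11, interval -0.33 to 0.21, adjusted p = 0.885), or 0.031 without control 3. Of 5 platelet markers 0 passed adjusted, and the median was -0.07. A positive difference was seen in 1 and a negative one in 4, as in 12342 of all 22369 probesets. The chemokine gene Pf4 had a log2 difference of 0.45 (adjusted p = 0.141) and Itga2b, which defines the lineage, -0.02.
Gap43 encodes neuromodulin, a calmodulin-binding protein of growing axons. Its intensities were 65.9, 77.6 and 71.0 in controls and 66.2, 59.6 and 60.7 after tamoxifen. The tamoxifen 1 pool overlapped the lowest control, and the log2 difference was -0.20 (SE 0.09, interval -0.41 to 0.01, adjusted p = 0.431 from limma).
Of the 4 IQ-motif genes, then, Pcp4l1 had a positive difference like Pcp4, and Nrgn and Gap43 had small negative ones. None of these 3 passed. Nrgn and Gap43 lay below the median intensity of every array (129.5 to 136.3), which limits what can be seen in them, and no direction is read for Nrgn.

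CaMKII is a multimeric kinase that adds phosphate to its own subunits after calmodulin binds and so stays active once calcium has fallen. Camk2a and Camk2b encode the subunits typical of brain, and Camk2d and Camk2g those of most other tissues. Differences in this family were small. Camk2d had intensities of 685.9, 762.2 and 729.2 in controls and 784.7, 877 and 779.6 after tamoxifen. The groups did not overlap, although the lowest tamoxifen pool was only 1.02-fold above the highest control. The log2 difference was 0.16 (SE 0.08, interval -0.03 to 0.36, adjusted p = 0.492 from limma), an FC of 1.12, and it was 0.11 without tamoxifen 2.
Camk2a had intensities of 98.6, 72.8 and 69.7 in controls and 76.5, 66.2 and 67.6 after tamoxifen, which overlapped. Its log2 difference of -0.18 (SE 0.15, interval -0.54 to 0.18, adjusted p = 0.698) rested on control 1 and was -0.03 without that pool. Camk2b had intensities of 101.1, 100.9 and 101.8 in controls and 113.1, 97.3 and 102.4 after tamoxifen. The controls differed by only 1.01-fold and lay within the tamoxifen range, with a log2 difference of 0.04 (SE 0.08, interval -0.15 to 0.23, adjusted p = 0.896), or -0.020 without tamoxifen 1. Camk2a and Camk2b lay below the median intensity of every array, which limits what can be seen in them.
For Camk2g no value of its own can be given. The probeset assigned jointly to Camk2g and Usp54, a ubiquitin peptidase family gene, had 513.5, 507.3 and 534.1 in controls and 577.9, 561.7 and 583.6 after tamoxifen. These did not overlap, with a log2 difference of 0.15 (SE 0.06, adjusted p = 0.418), and the contribution of either gene was not tested.
The inhibitors of CaMKII had overlapping groups. Camk2n1 had 420.6, 516.7 and 550.8 in controls and 563.4, 536.6 and 555.4 after tamoxifen (log2 difference 0.16, adjusted p = 0.633), or 0.048 without control 1. Camk2n2 had 54.2, 54.9 and 55.2 and then 46.5, 55.1 and 64.1, a log2 difference of 0.0013 (adjusted p = 0.998).

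Over the 7 measured genes, 1 was called at an adjusted p under 0.05, and that gene was Pcp4, so that the count restates how the set was chosen. Of all probesets 0.282% were called higher and 0.107% lower by this rule, 0.389% in all. At an unadjusted p under 0.05 Pcp4l1 was called as well, beside 12.4% of all probesets in either direction. At a p under 0.01 with an FC over 1.4 the called gene was again Pcp4 alone, beside 2.1% of all probesets by limma and 1.14% with the methods' t-test. Without control 1 and tamoxifen 2, the pools that stood apart, the log2 difference was 0.55 for Pcp4l1, 0.07 for Camk2d and -0.23 for Gap43. The groups did not overlap in 3 of the 7 (Pcp4, Pcp4l1 and Camk2d, all higher), where 21% of all probesets did not overlap. The median log2 difference of the 7 was 0.04, beside -0.02 over all probesets. Nothing is read from these shares about the set, since Pcp4 was counted in them.

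The wider calmodulin pathway was described with 11 lists that hold 95 further genes, of which 87 were measured. None rose and none fell by limma, and the methods' t-test, adjusted, which called 0.076% of all probesets, gave 0 too. Without adjustment, 15 had a p under 0.05 with higher values and 3 with lower values (17.2% and 3.45%), beside 6.55% and 5.87% of all probesets. The groups did not overlap in 22 genes with higher and 8 with lower values (25.3% and 9.2%), beside 9.79% and 11.2% of all probesets. The median log2 difference of the 87 was 0.03, beside -0.02 over all probesets. Each of the 87 genes stands by its brightest probeset, whereas all probesets include dimmer ones and ones without a gene symbol. These shares are therefore not of like units.

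**Figure D2:**
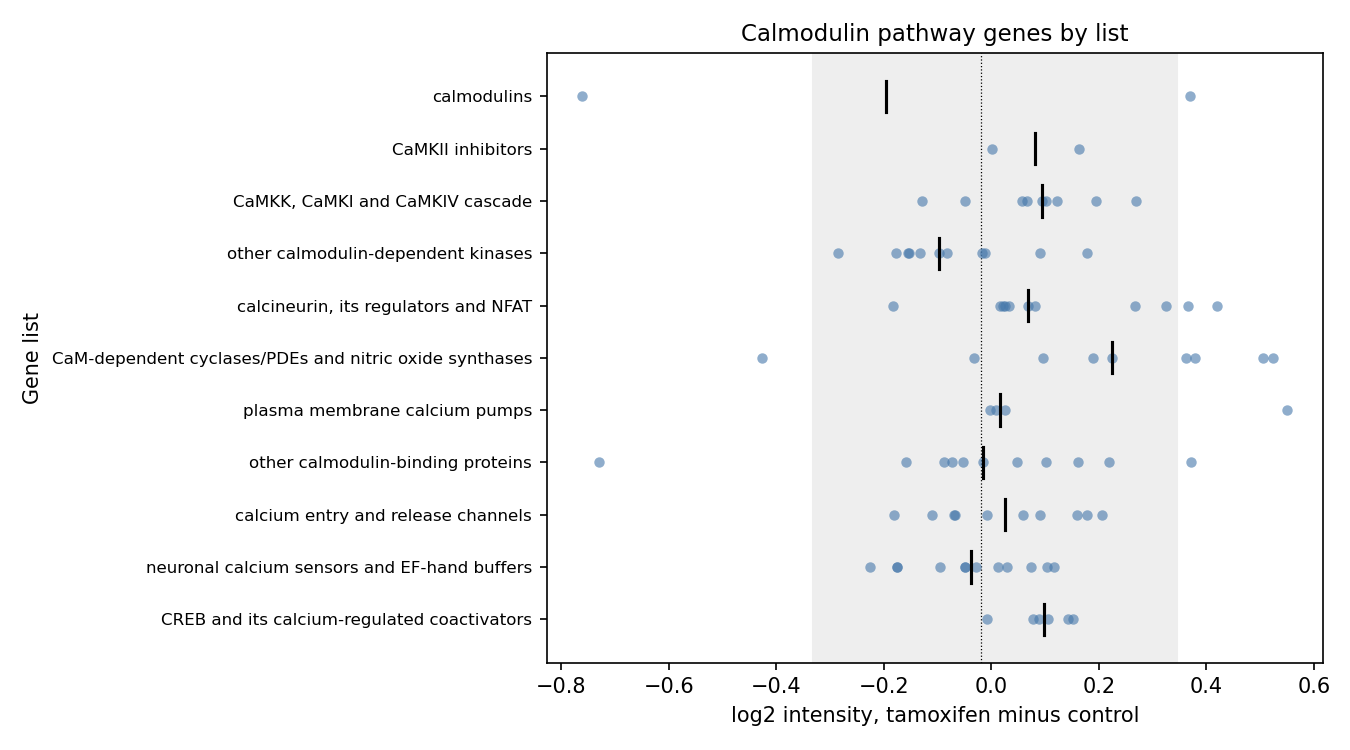
Difference in log2 intensity, tamoxifen minus control, for each of the 87 measured pathway genes (points) by list, with the list median as a black bar. The grey band spans the 5th to 95th percentile of all probesets (-0.33 to 0.35) and the dotted line their median of -0.02. Most points lie within the band.

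Of the calmodulin-like genes, Calml4 had 52.7, 70.0 and 53.1 in controls and 71.2, 77.0 and 77.0 after tamoxifen, a log2 difference of 0.37 (SE 0.13, adjusted p = 0.329 from limma). Calml3, a calmodulin-like gene known from human epithelia, had 232.1, 98.6 and 92.4 in controls and 75.1, 79.5 and 72.8 after tamoxifen. Every tamoxifen pool lay below every control pool. The size of the log2 difference, -0.76 (adjusted p = 0.446 from limma), depended on control 1. It was -0.33 without that pool (adjusted p = 0.272).

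Among the direct enzyme targets of calmodulin, the list of cyclases, phosphodiesterases and nitric oxide synthases held the most genes with separated groups. Of 9 measured, none passed adjusted, and at an unadjusted p under 0.05 there were 5 with higher and 1 with lower values, beside 6.55% and 5.87% of all probesets. The groups did not overlap in 7 of the 9, beside 21% of all probesets. Pde1b, which breaks down cyclic nucleotides when calmodulin is loaded, had 119.2, 142.8 and 139.7 in controls and 186.6, 199.3 and 182.6 after tamoxifen. Its lowest tamoxifen pool was well above the highest control, with a log2 difference of 0.50 (SE 0.09, interval 0.28 to 0.73, adjusted p = 0.116 from limma). Pde1a, of the same family, had 106.2, 112.4 and 116.7 and then 156.1, 138.2 and 142.2, a log2 difference of 0.38 (SE 0.08, adjusted p = 0.144).
The other genes of this list past an unadjusted p of 0.05 were picked after their values were seen. Nos3, the endothelial nitric oxide synthase, had 364.1, 493.4 and 487.0 in controls and 730.4, 550.7 and 646.1 after tamoxifen (log2 difference 0.52, adjusted p = 0.285). The 6 endothelial markers summed to 10695 to 12542 in controls and 13283 to 13533 after tamoxifen, and their part in the Nos3 value was not tested. Nos2, the inducible synthase, had a log2 difference of 0.36 (adjusted p = 0.292). The brain adenylyl cyclase gene Adcy8 had 0.22 (adjusted p = 0.327) at a low intensity of 32.8 to 41.7. Nos1, the neuronal synthase, went the other way with 181.9, 164.0 and 173.9 in controls and 144.6, 119.4 and 124.1 after tamoxifen (log2 difference -0.43, adjusted p = 0.17).
Calmodulin also activates the plasma membrane pumps that expel calcium. Atp2b4, which encodes one of these pumps, had the smallest p of all 87 pathway genes. Its intensities were 337.2, 368 and 397.1 in controls and 555.8, 507.7 and 548.8 after tamoxifen, with means of 367.4 ± 30.0 and 537.5 ± 26.0. The groups were separated by more than the spread within either, but the log2 difference of 0.55 (SE 0.09, interval 0.34 to 0.76) did not pass (adjusted p = 0.0835 from limma). It passed in 5 alternatives, with an adjusted p from 0.0192 to 0.309 over all of them. The other pump genes were near control, with log2 differences of -0.0032 for Atp2b1, 0.01 for Atp2b2 and 0.03 for Atp2b3. Those 3 had overlapping groups.

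Calcineurin is the phosphatase that calmodulin activates, and NFAT factors are its best known substrates. Of 11 measured genes of this list 0 passed adjusted, and 4 had higher and 0 lower values at an unadjusted p under 0.05, beside 6.55% and 5.87% over the whole array. Nfatc1 had 579.5, 703.9 and 762.7 in controls and 916.3, 941.7 and 863.9 after tamoxifen (log2 difference 0.42, SE 0.11, adjusted p = 0.241 from limma). Nfatc2 had 816.4, 949.6 and 1030 and then 1132, 1168 and 1185 (log2 difference 0.32, adjusted p = 0.289). In both genes control 1 was the lowest pool and the groups did not overlap, and without control 1 and tamoxifen 2 the log2 differences were 0.28 and 0.23. The other 2 of the 4 were the calcineurin regulators Rcan1 (log2 difference 0.37, adjusted p = 0.299) and Rcan2 (0.27, adjusted p = 0.367), named after their values were seen. The catalytic subunit genes themselves had log2 differences of 0.02 for Ppp3ca, 0.07 for Ppp3cb and 0.03 for Ppp3cc.
In the CaMKK, CaMKI and CaMKIV cascade one calmodulin kinase activates the next. Of 9 genes of this list, 1 was higher at an unadjusted p under 0.05, beside 6.55% of all probesets. This was Pnck, a CaMKI family kinase, with 103, 110.6 and 102.1 in controls and 125.6, 116.3 and 139.1 after tamoxifen (log2 difference 0.27, adjusted p = 0.32). Camk1d had a log2 difference of 0.20 (adjusted p = 0.549), or 0.080 without tamoxifen 2. Among 11 other calmodulin-dependent kinases, 9 had a negative difference, as did 12342 of all 22369 probesets. The groups did not overlap in 3 with lower and 1 with higher values, beside 11.2% and 9.79% of all probesets. At an unadjusted p under 0.05, 1 was higher, beside the same 6.55%. That one was Mylk, the myosin light chain kinase of smooth muscle and myoepithelium, with 890.3, 841.3 and 880.7 in controls and 1003, 956 and 995.9 after tamoxifen (log2 difference 0.18, SE 0.07, adjusted p = 0.358), where the smooth muscle markers summed higher as given above, and their part was not tested. Mylk2, the form of skeletal muscle, had -0.29 (adjusted p = 0.402) at a low intensity of 30.7 to 44.3.

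No gene of the remaining lists passed adjusted. In the list of other calmodulin-binding scaffolds the groups did not overlap in 5 of 11 genes, 3 higher and 2 lower, beside 21% of all probesets, and the median log2 difference was -0.02. Iqgap3, a scaffold with IQ motifs that is known from proliferating cells, had 822.2, 625 and 530.3 in controls and 439.2, 344.9 and 394.5 after tamoxifen. The groups did not overlap, and the log2 difference was -0.73 (SE 0.18, adjusted p = 0.202 from limma), or -0.47 without control 1 and tamoxifen 2. All 7 proliferation markers were also lower at an unadjusted p under 0.05, beside 5.87% of all probesets, and none passed adjusted. Their median log2 difference was -1.02, with sums of 2096 to 4024 in controls and 1153 to 1608 after tamoxifen. The highest sum was in control 1, and the part of these markers in the Iqgap3 value was not tested. Its relatives Iqgap2 and Iqgap1 had log2 differences of -0.16 (adjusted p = 0.423) and 0.10 (adjusted p = 0.641). The highest difference of this list was 0.37, in the kinase anchoring gene Akap12, with overlapping groups of 374.5 to 520.1 and 475.0 to 663.0 (adjusted p = 0.444).
Of the calcium channels, Orai3, a pore subunit of store-operated entry, had a log2 difference of -0.18 (adjusted p = 0.353), and Stim1, the sensor of the calcium store, 0.21 (adjusted p = 0.4). Neuronal calcium sensors and EF-hand buffers had 0 of 12 genes at an unadjusted p under 0.05, beside 12.4% of all probesets in either direction. Hpcal1 and Hpcal4, with the smallest p of that list, had log2 differences of -0.17 and -0.23, or -0.068 without tamoxifen 3 and -0.061 without tamoxifen 2. Of the CREB group, transcription factors that CaM kinases can activate, Atf1 had 376.6, 373.5 and 372.1 in controls and 405.7, 418.2 and 423.9 after tamoxifen (log2 difference 0.15, adjusted p = 0.395), and Creb1 0.11 (adjusted p = 0.684), or 0.0495 without tamoxifen 1.

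**Figure D3:**
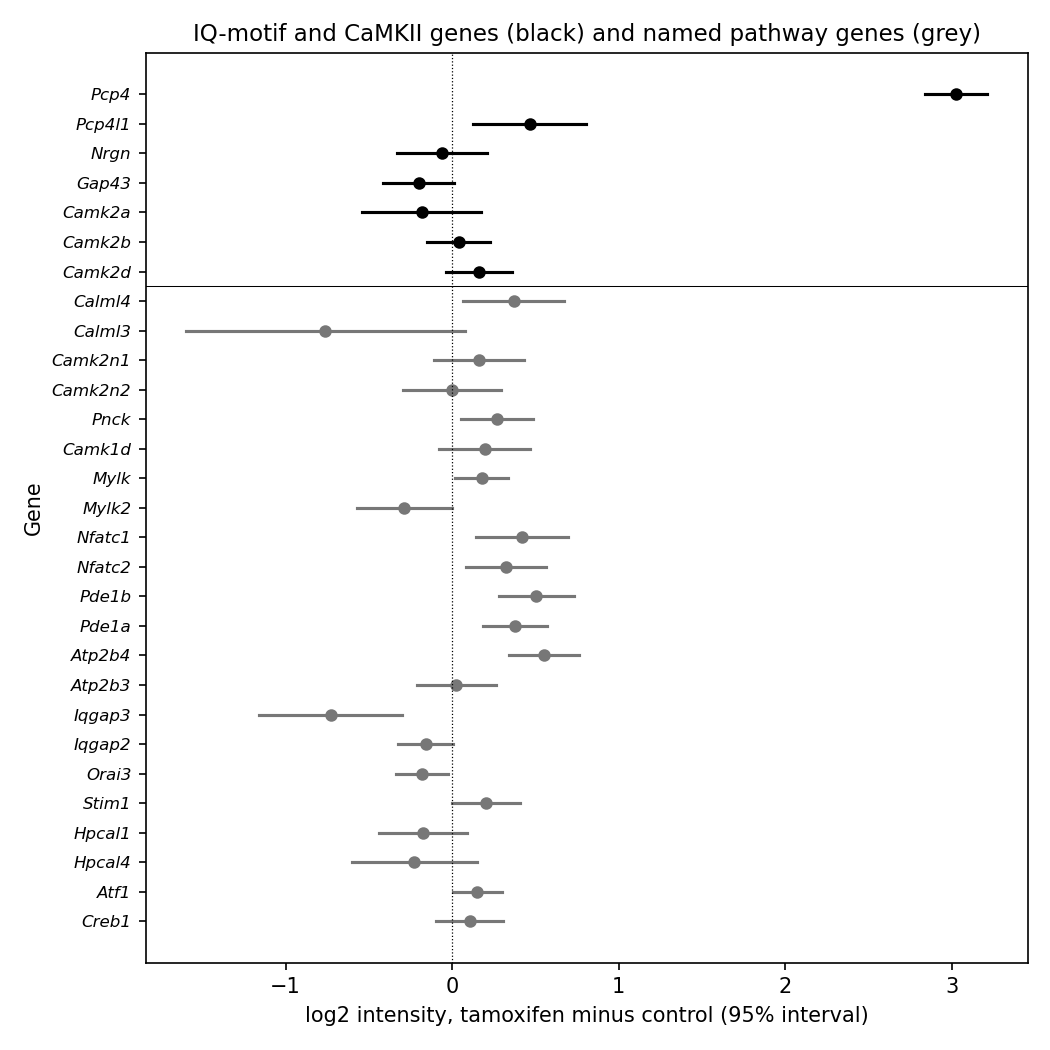
Difference in log2 intensity, tamoxifen minus control, with its 95% interval from limma for the 7 IQ-motif and CaMKII genes (black) and 2 pathway genes of each list, those with the smallest p (grey). Pcp4 lies at 3.03, and of the genes drawn with positive differences Atp2b4 at 0.55 and Pde1b at 0.50 come next. The lowest are Calml3 at -0.76 and Iqgap3 at -0.73. Genes named after their values were seen, such as Nos3, are not drawn. Intervals are for single genes and are not adjusted for the number of probesets.

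To see which transcripts had a profile like that of Pcp4, each gene was set as log2 intensity minus its own control mean, and the root mean square distance from Pcp4 was taken over the 6 arrays. The nearest gene was Krt4, a keratin of stratified epithelia, at a distance of 0.51. It had 72.0, 69.2 and 48.5 in controls and 711.2, 913.3 and 794.6 after tamoxifen. Obp2a, a lipocalin that binds odorants, followed at 0.76, Ppp2r2c, which encodes a subunit of the phosphatase PP2A, at 0.76, Fam183b at 0.78 and Fgf12, an intracellular fibroblast growth factor, at 0.87. Krt4 and Obp2a were higher than Pcp4 on this scale in every tamoxifen pool and the other 3 lower. The distance is a description over arrays that share the group difference, and a gene without one could not come near.

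**Figure D4:**
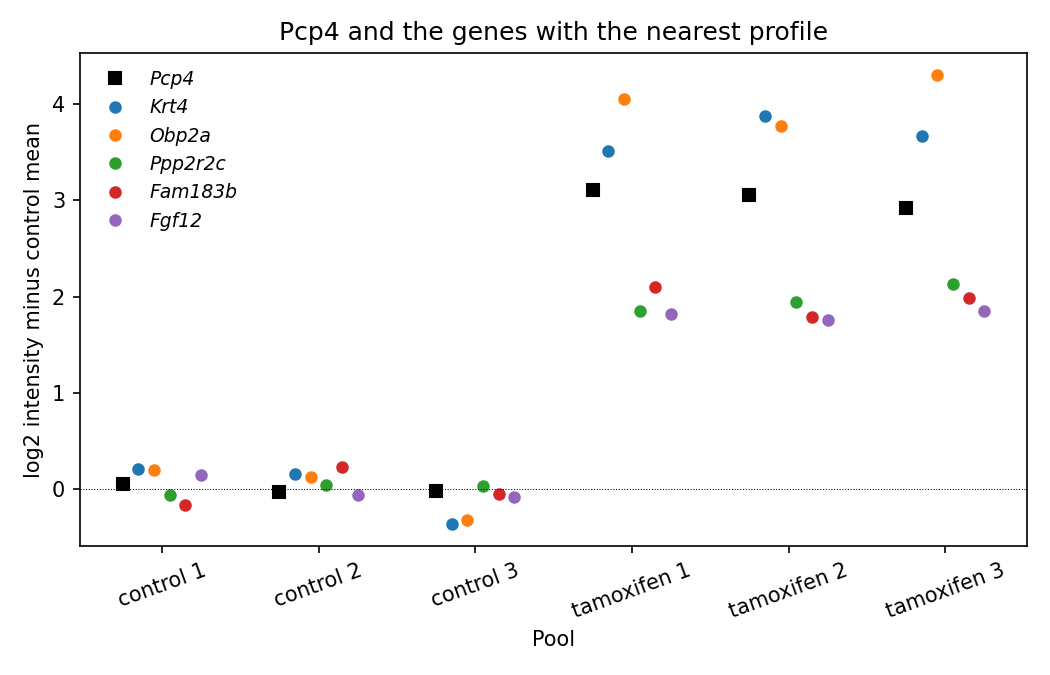
Log2 intensity minus the control mean of each gene in the 6 pools, for Pcp4 (black squares) and the 5 genes with the nearest profile (circles). All 6 genes lie closer to 0 in controls than in any tamoxifen pool. Krt4 and Obp2a lie above Pcp4 in the tamoxifen pools and Ppp2r2c, Fam183b and Fgf12 below.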

How the data were processed

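Total RNA of 3 control and 3 tamoxifen pools was profiled on Affymetrix mouse ST arrays, named as Exon arrays in the labels and Gene arrays in the paper. For each probeset the authors deposited a linear intensity per array. MAS5 and mm9 are named in the submitters' processing notes without their role. How background was corrected and arrays were normalized is not given in the sources used here. Of 22369 probesets, 18286 carry 1 gene symbol in the platform annotation, 1276 several and 2807 none, and the probeset with the highest mean over 6 arrays represents a gene. Intensities were converted to log2 without offset or filter and fitted with limma 3.58.1 (R 4.3.3) on the group alone, with 4 residual and 2.35 prior degrees of freedom. P-values are two-sided and adjusted over all probesets (Benjamini-Hochberg). "Rose" and "fell" are used at an adjusted p under 0.05. The methods' t-test is an equal-variance test on log2 values. For a single gene, exact permutation of 3 and 3 pools gives no p under 0.1. No source says that pools came from separate experiments. P-values therefore set a difference against the spread between these pools only. In limma that spread is moderated by the spread over all probesets. The number of arrays limits the precision. The fit was tested on simulated data.
The members and gene lists were chosen with earlier results of these data known. Named genes are all members, from each list the 2 genes with the smallest p and any past the threshold, and the 5 genes with the profile nearest to Pcp4. Marker genes, relatives of named genes and the other genes of the enzyme and calcineurin lists were named after their values were seen. Alternatives were other tests, array weights, a variance trend with robust estimation, filters on dim probesets, quantile normalization, centring on the median, an offset of 32 before log2, keeping 1 probeset for a gene, taking its dimmest probeset, the replicate number as a block and each array left out, with control 1 and tamoxifen 2 left out together added after the data were seen. Promoter windows come from RefSeq (GRCm38.p6), and motifs and plots were made in Python 3.11.15.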

Additional observations from a re-analysis of the deposited data

How the results depend on the processing

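The count of called probesets (87) depended on the processing. It was 17 by the methods' t-test, 190 with a variance trend and robust estimation, 519 with array weights, 144 with probesets under the 25th percentile of intensity left out and 194 with those under the median left out, 161 with an offset of 32, 469 and 255 at a p under 0.01 with an FC over 1.4 in limma and in the t-test, 21 to 31 with 1 array left out, and 4 without control 1 and tamoxifen 2. The called gene of the set was Pcp4 throughout, which restates the choice of the set, and its log2 difference was 2.68 with the offset. Of the pathway genes 0 were called, but 1 was with the variance trend, with the 25th percentile filter or with the offset (Atp2b4 each time), 2 with the median filter (Atp2b4 and Pde1b), 4 with array weights (Atp2b4, Pde1b, Pde1a and Nos1, the last lower), and 3 and 2 at the FC threshold by limma and by the t-test. Under the filters fewer probesets were tested, and the SE changed as well. For Atp2b4 it was 0.087 in the main fit, 0.083 with the 25th percentile filter and 0.078 with the median filter. The cause was not tested for any setting.
The log2 difference of Camk2a, -0.18 in the main fit, turned sign to 0.014 without control 1 and tamoxifen 2. Differences near 0 turned sign in Nrgn (0.031 without control 3, with -0.17 to 0.031 over all single pools left out), Camk2b (-0.020 without tamoxifen 1, range -0.020 to 0.088), Atp2b3 (-0.048 without tamoxifen 1, range -0.048 to 0.11) and Camk2n2 (-0.0061 without control 1, -0.0029 without tamoxifen 2, -0.11 without tamoxifen 3, 0.12 without tamoxifen 1 and -0.010 without control 1 and tamoxifen 2). The replicate block called 15 probesets and 0 pathway genes. Deviations of same-numbered pools correlated at 0.05, 0.01 and -0.04, and those of differently numbered pools at -0.06 to 0.07. With 3 pools in a group this cannot show whether same-numbered pools shared a batch. Intensities near the background of the arrays limit what can be seen in dim genes such as Camk2n2 and Mylk2.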
